A study of Mus musculus with 4 samples.

Results

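The genes described here are 5 brush border and related hydrolases, taken by symbol from the 23735 rows of the normalized expression table, and all 5 were found. Alpi, Akp3 and Alpl encode alkaline phosphatases. Enpp7 encodes alkaline sphingomyelinase and Asah2 encodes neutral ceramidase. Alppl2, a further gene of the phosphatase cluster, is described beside them as a close relative. The data were RNA-seq values of jejunal epithelium, released with EDTA, from adult mice on a 129xC57/Bl6xSvJ mixed background. There were 2 Cre- control libraries and 2 libraries labelled Hnf4a-/-;Cdx2-/-, called biological replicates in the labels. Every mouse, controls included, received 1 mg of tamoxifen on each of 5 days. The promoter that drove Cre is not given in the sources used here.

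Intestinal alkaline phosphatase is anchored to the apical membrane of enterocytes by a glycosylphosphatidylinositol (GPI) lipid, removes phosphate from luminal substrates such as bacterial lipopolysaccharide, and is a classical marker of the mature brush border. Dietary and shed sphingomyelin is digested in the same membrane in sequence. Alkaline sphingomyelinase cleaves it to ceramide, and neutral ceramidase splits ceramide into sphingosine and a fatty acid, which the enterocyte takes up. HNF4A and CDX2 are transcription factors of the intestinal epithelium.

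In the libraries labelled double knockout, the sphingolipid hydrolases were lower and the abundant phosphatase was not. Enpp7 was 301-fold lower and Asah2 10.4-fold lower by group mean FPKM (fragments per kilobase of transcript, scaled to library size). Alpi stood at 1.71 times its control mean, a difference that did not pass the test. Alpl was barely detected in any library. Genes were tested with limma on log2(FPKM + 1) and called at a Benjamini-Hochberg adjusted p under 0.05. Of the 5 members 4 passed the filter (an average of 1 FPKM or more over the 4 libraries), and 2 of those were called lower and 0 higher, where 5.80% of all 10883 tested genes were called lower, 3.77% higher and 9.57% in either direction. Over all genes this was 410 higher and 631 lower, and 515 higher and 478 lower when the FPKM of each library alone were used, with the same calls for the 4 members tested.

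**Figure D1:**
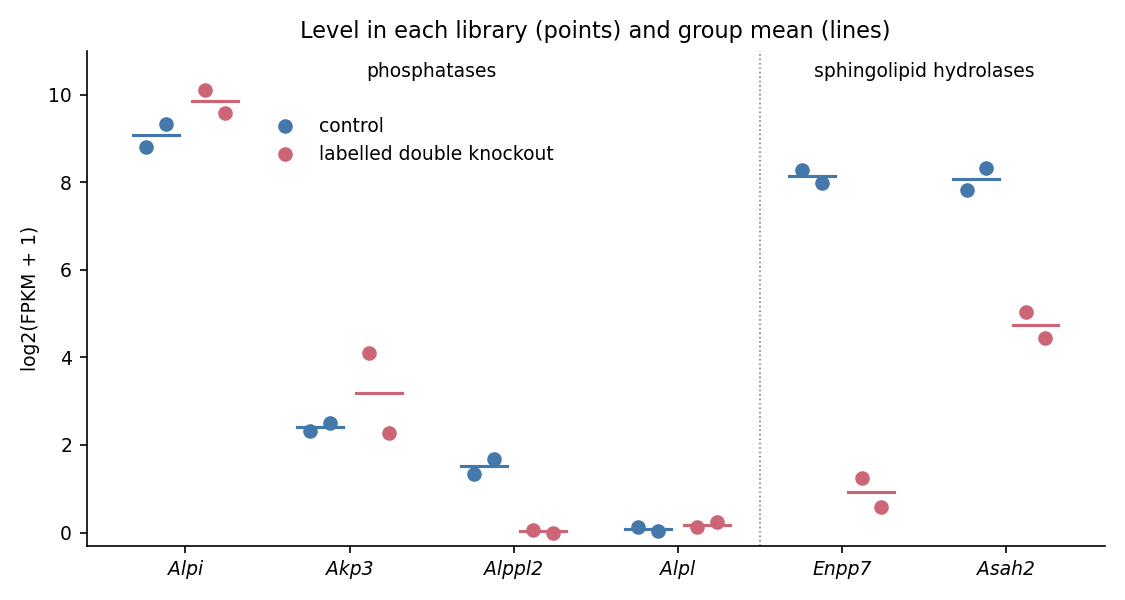
Level of each gene on the log2(FPKM + 1) scale in the 4 libraries, with control libraries in blue, libraries labelled double knockout in red, and lines at the group means (n = 2 each). Enpp7 drops from about 8 to about 1 and Asah2 keeps an intermediate level, while the Alpi points of the labelled double knockout lie above those of control.

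The targeted genes were read first. Hnf4a stood at 156 and 202 FPKM in control and 31.6 and 48.2 in the libraries labelled double knockout (limma, adjusted p = 0.0147). Cdx2 stood at 70.9 and 65.2 against 159.8 and 161 FPKM (limma, adjusted p = 0.0150), which goes against the label, so the mutant libraries are named by their label throughout. The direction held in every fit with 1 library left out, but the limma call of Hnf4a was lost without control replicate 1 or 2 (0.0624 and 0.0875), and that of Cdx2 without control replicate 1 or 2 or without double knockout replicate 2 (0.0696, 0.0868 and 0.0602). A level over all exons does not show whether Cdx2 was deleted, and which exons the alleles remove is not stated in the labels. Of 8 epithelial markers 7 were in the table, at a summed level of 20737 and 21890 FPKM in control and 23448 and 20624 in the labelled double knockout. Most of this sum came from Fabp1 and Fabp2, with means of 7549.9 and 7298 FPKM in control and 7774 and 8195 in the labelled double knockout. Of the 7 markers, Vil1 (villin) and Epcam were called lower, beside 5.80% of all tested genes, and none was called higher. They stood at 997 ± 38.4 against 497 ± 15.3 FPKM and 1208 ± 104 against 529 ± 2.94 (SD, n = 2 each; limma, adjusted p = 0.0411 and 0.0300). These calls were not refitted with libraries left out. Summed macrophage, lymphocyte and fibroblast or smooth muscle markers lay between 0.771 and 22.5 FPKM in every library, and of the macrophage list 2 genes were tested, with Cd14 called higher and C1qb not called (log2 fold change -0.50; limma, adjusted p = 0.401). In such bulk samples, fewer cells of a type and less RNA per cell cannot be told apart. The deposited files give FPKM and no counts, but low values of the normalized table fell in steps of whole reads. From these steps, control replicate 2, double knockout replicate 1 and double knockout replicate 2 had 0.685, 0.652 and 0.498 times the depth of control replicate 1 on the normalized scale.

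Alpi, the main intestinal alkaline phosphatase gene in these libraries, lies on chromosome 1 (88994577 to 88998181, mm9). Its level was 447 and 645 FPKM in the control libraries and 1106 and 764 FPKM in the libraries labelled double knockout. Both labelled double knockout values lay above both control values, a separation that 60.7% of all tested genes showed in one direction or the other. The log2 fold change was 0.78 ± 0.30 (SE, 95% interval from -0.003 to 1.555; limma, adjusted p = 0.178), so a rise of Alpi was not called. By FPKM it ranked 233 and 163 among 22458 symbols in control and 82 and 131 in the labelled double knockout. The authors' deposited table gives group values of 558 and 950.1 FPKM and does not call the gene (q = 0.365). Alpi therefore remained among the most abundant transcripts of every library.

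Akp3 encodes a second intestinal alkaline phosphatase, known from the duodenum. It lies 23.4 kb from Alpi (chromosome 1, 89021583 to 89024487, mm9). It stood at 3.99 and 4.61 FPKM in control and at 16.2 and 3.81 FPKM in double knockout replicates 1 and 2. The groups overlapped: 1 labelled double knockout library was the highest of the 4 and the other the lowest. The log2 fold change was 0.78 ± 0.60 (SE, 95% interval from -0.777 to 2.336; limma, adjusted p = 0.451). This value rested on double knockout replicate 1. Without it the log2 fold change was -0.14 (limma, adjusted p = 0.785), and without double knockout replicate 2 it was 1.70 and called (limma, adjusted p = 0.0450). The authors' deposited table calls Akp3 higher, at group values of 4.37 and 9.92 FPKM (q = 0.0434), where 5.90% of its 11594 rows with status OK are called higher. Scaled by its transcript length of 1680 bases, the 4 values correspond to about 122 and 98 reads in control and 325 and 59 in the labelled double knockout. Per length, Alpi exceeded Akp3 by 112 and 140 times in control and by 68.3 and 201 times in the labelled double knockout.

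**Figure D2:**
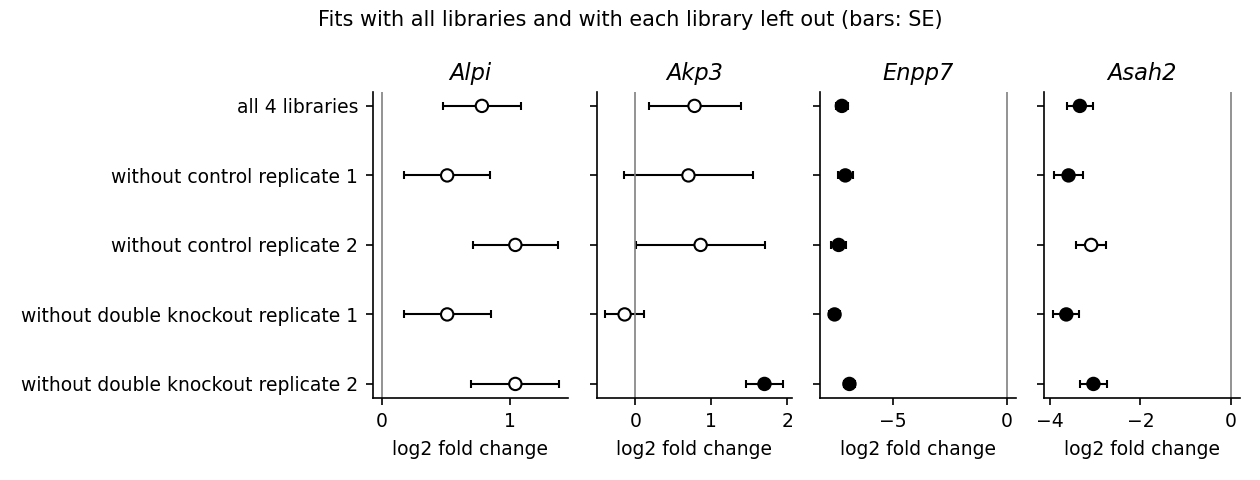
Log2 fold change (labelled double knockout minus control, log2(FPKM + 1) scale) with its SE from limma with all 4 libraries and with each library left out, on a separate horizontal axis for each gene. Filled points have an adjusted p under 0.05, and Akp3 moves from -0.14 to 1.70 depending on which double knockout library is left out.

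Alppl2, the paralog known as the embryonic alkaline phosphatase gene, lies 8.07 kb from Alpi on its other side (chromosome 1, 88983266 to 88986503, mm9). Its values were 1.52 and 2.22 FPKM in control, 0.0395 in double knockout replicate 1 and listed at 0 in double knockout replicate 2. By the read steps these are 59, 59, 1 and 0 reads, each within 0.0529 of a whole read. Per unit of depth the control libraries held 80.5 times as many Alppl2 reads, with an exact 95% interval for counting error alone of 14.2 to 3208. Its mean over the libraries lay under the filter, so limma gave it no test, and the authors' deposited table does not call it (q = 0.571). Within 1 cluster of 3 phosphatase genes, Alppl2 was thus nearly absent from the libraries labelled double knockout, in which Alpi remained abundant. The higher level of Alpi there was not called.

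The sequences of the cluster bear on whether reads could be shared between its genes and on what their promoters have in common. Of the 1606 stretches of 75 bases, the read length, in the Akp3 transcript, 0 were identical to any stretch of the Alpi transcript and 78 (4.86%) matched with at most 2 mismatches. In the other direction, 78 of 2263 Alpi stretches (3.45%) matched Akp3 as closely. Alpi had far more reads than Akp3, about 18961 and 18953 in control and 30936 and 16405 in the labelled double knockout. Whether Alpi reads were counted for Akp3 was not tested. For Alppl2 against Alpi or Akp3 there was no such stretch. Aligned transcript bases were 81.8% identical between Alpi and Akp3, 77.4% between Alpi and Alppl2, and 63.9% between Alpi and Alpl. How the authors' tools treated reads with several matches is not given in the sources used here. The promoter windows below run from 250 bases before to 50 bases after each RefSeq start (GRCm38.p6, a later build than the mm9 of the expression files), 5′ to 3′ on the strand of the gene. They are Alpi at chr1:87101557-87101856 (minus strand), Akp3 at chr1:87124704-87125003 (plus strand) and Alppl2 at chr1:87089879-87090178 (minus strand). They are shown because these neighbouring genes differed widely in level. Capitals mark matches to the 5 motifs searched on both strands.
Alpi: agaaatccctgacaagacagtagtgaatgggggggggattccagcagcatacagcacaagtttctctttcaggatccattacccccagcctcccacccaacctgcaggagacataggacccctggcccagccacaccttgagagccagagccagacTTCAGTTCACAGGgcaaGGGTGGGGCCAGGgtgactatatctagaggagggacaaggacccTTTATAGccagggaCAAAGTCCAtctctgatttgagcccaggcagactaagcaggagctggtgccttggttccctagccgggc
Akp3: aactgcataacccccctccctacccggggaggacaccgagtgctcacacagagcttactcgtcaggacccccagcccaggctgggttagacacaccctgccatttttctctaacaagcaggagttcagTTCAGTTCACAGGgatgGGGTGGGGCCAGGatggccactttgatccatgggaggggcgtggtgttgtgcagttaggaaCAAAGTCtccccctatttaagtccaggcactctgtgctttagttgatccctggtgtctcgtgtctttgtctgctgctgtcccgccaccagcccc
Alppl2: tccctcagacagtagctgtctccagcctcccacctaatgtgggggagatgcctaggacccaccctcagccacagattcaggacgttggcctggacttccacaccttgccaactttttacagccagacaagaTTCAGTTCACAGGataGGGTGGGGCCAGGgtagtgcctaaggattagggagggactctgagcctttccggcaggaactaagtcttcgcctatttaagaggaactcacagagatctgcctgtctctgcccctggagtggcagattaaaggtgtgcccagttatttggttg
The longest runs shared by the 3 windows were 13 bases, GGGTGGGGCCAGG and TTCAGTTCACAGG, which do not overlap. Both were taken from these windows, so their presence there was fixed in advance and the counts below are no test. The first begins 77, 105 and 103 bases before the start in Alpi, Akp3 and Alppl2 and occurs in 16 of 32851 promoter windows (0.0487%). The second begins 94, 122 and 119 bases before the start and occurs in 10 windows (0.0304%). CAAAGTCCA, a sequence known for binding HNF4 factors, occurs in Alpi, beginning 19 bases before the start, and in 0.475% of all windows. Its shorter form CAAAGTC, which overlaps it in Alpi, also occurs in Akp3 (44 bases before the start) and in 4.44% of all windows, and was not found in the Alppl2 window. TTTATNG, a form of the CDX binding core, occurs in Alpi 33 bases before the start and in 10.9% of all windows.

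Alpl encodes the tissue-nonspecific alkaline phosphatase of bone, liver, kidney and neutrophils (chromosome 4, 137297646 to 137352299, mm9). It was listed at 0.0846 and 0.0308 FPKM in control and at 0.0974 and 0.170 FPKM in the libraries labelled double knockout. These are 4, 1, 3 and 4 reads by the read steps, which puts the gene at the limit of detection in all 4 libraries. Per unit of depth the ratio of the labelled double knockout to control was 2.05, with an exact 95% interval for counting error of 0.56 to 8.20, so no difference was detectable at this depth. It lay under the filter and was not tested, and the authors' deposited table gives it the status of no test. Of 8 neutrophil markers 7 were in the table, 4 of them listed at 0 in every library. Their summed level was 0.586 and 7.03 FPKM in control and 0.307 and 0.117 in the labelled double knockout. Whether neutrophils contributed to the Alpl reads was not tested. Endothelial markers summed to between 0.852 and 0.961 FPKM in every library.

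Enpp7 (chromosome 11, 118849502 to 118854155, mm9) was among the abundant transcripts of control epithelium, at 309 and 253 FPKM, ranks 320 and 420 of 22458 symbols. In the libraries labelled double knockout it stood at 1.36 and 0.508 FPKM, ranks 10234 and 11603. The groups lay far apart. With annotated transcripts of 1370 and 1923 bases, these values correspond to about 22 to 31 and 6.4 to 9.0 reads, against 7689 to 10792 and 4359 to 6119 in control. The log2 fold change was -7.22 ± 0.27 (SE, 95% interval from -7.900 to -6.535; limma, adjusted p = 0.00133). Among the 10883 tested genes this was the deepest fall on the log2(FPKM + 1) scale. The authors' deposited table has group values of 285 and 0.923 FPKM and calls it lower (q = 0.000868), as it does 7.31% of its rows with status OK. The adjusted p of Enpp7 stayed under the threshold whichever library was left out, with a highest value of 0.0284 (limma).

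Asah2 (chromosome 19, 32059141 to 32177630, mm9) acts on the ceramide that Enpp7 releases. It stood at 226 and 320.3 FPKM in control and at 31.8 and 20.7 FPKM in the libraries labelled double knockout. The groups did not overlap, as was so for 60.7% of all tested genes. Unlike Enpp7, Asah2 remained well detected, at ranks 2617 and 3596 after ranks 423 and 328 in control. The log2 fold change was -3.34 ± 0.29 (SE, 95% interval from -4.079 to -2.598; limma, adjusted p = 0.00737), which ranks 56 among the falls of the tested genes. It was called in the authors' deposited table, with group values of 268 and 26.3 FPKM (q = 0.000868). Without control replicate 2 the limma adjusted p was 0.0523, at a log2 fold change of -3.09. In control, Asah2 stood at 0.731 and 1.27 times the FPKM of Enpp7, and in the labelled double knockout at 23.4 and 40.8 times.

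The promoter windows of both hydrolase genes are shown for comparison with those of the phosphatases (RefSeq starts, GRCm38.p6). They are Enpp7 at chr11:118987931-118988230 (plus strand) and Asah2 at chr19:32103091-32103390 (minus strand), with capitals as before.
Enpp7: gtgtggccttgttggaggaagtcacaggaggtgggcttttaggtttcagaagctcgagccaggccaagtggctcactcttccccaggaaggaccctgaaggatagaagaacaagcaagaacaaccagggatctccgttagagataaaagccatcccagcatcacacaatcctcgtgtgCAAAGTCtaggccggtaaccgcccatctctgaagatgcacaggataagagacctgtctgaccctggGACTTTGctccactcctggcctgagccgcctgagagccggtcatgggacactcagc
Asah2: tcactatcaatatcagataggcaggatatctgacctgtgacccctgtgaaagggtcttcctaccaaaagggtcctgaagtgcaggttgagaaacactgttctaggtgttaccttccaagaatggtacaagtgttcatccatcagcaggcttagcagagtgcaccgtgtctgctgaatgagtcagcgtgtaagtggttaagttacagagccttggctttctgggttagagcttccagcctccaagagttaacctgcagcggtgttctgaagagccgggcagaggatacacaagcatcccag
Enpp7 holds CAAAGTC on both strands, beginning 72 and 6 bases before the start. The Asah2 window holds none of the 5 motifs, of which the 2 longest had been taken from the phosphatase windows themselves. Of the 2 Alpl windows in the table, the first holds CAAAGTC and the second TTTATNG. The longer CAAAGTCCA was found in neither hydrolase window. These matches describe letters in a short window only.

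Set against each other within each library, the phosphatase and the hydrolases drew apart. Alpi exceeded Enpp7 by 1.45 and 2.55 times in the controls and by 814 and 1505 times in the libraries labelled double knockout, as ratios of FPKM. It exceeded Asah2 by 1.98 and 2.01 times in the controls and by 34.8 and 36.9 times in the labelled double knockout. The ratio of Alpi to Asah2 thus varied little within each group, although both genes were higher in control replicate 2 than in replicate 1 and both were higher in double knockout replicate 1 than in replicate 2. On the log2(FPKM + 1) scale the change of the ratio between groups was 7.99 for Alpi to Enpp7 and 4.11 for Alpi to Asah2. For Akp3 it was 8.0 and 4.12, and for the nearly absent Alpl 7.32 and 3.44. All 6 pairs separated the groups completely. They share the same 2 hydrolases, whose own groups lay far apart, so this count says little about the phosphatases. An exact two-sided permutation test gave p = 0.33 for each pair (also 0.33 adjusted over the 6 pairs), the smallest value that 2 libraries against 2 allow, so this test could not reach the threshold.

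**Figure D3:**
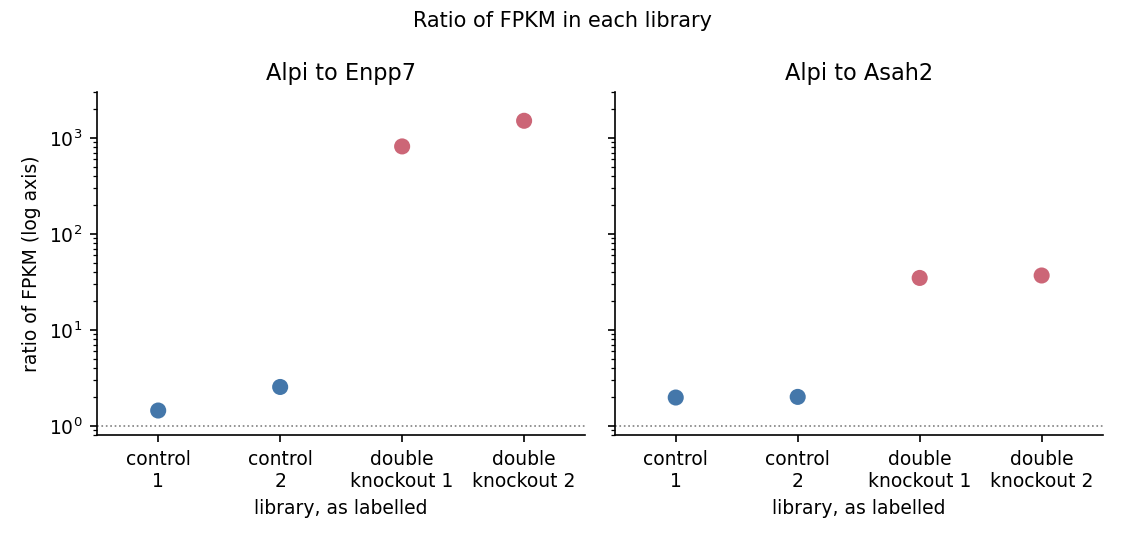
Ratio of Alpi FPKM to Enpp7 FPKM (left) and to Asah2 FPKM (right) in each library, on a log axis with a dotted line at 1. The control libraries lie between 1.45 and 2.55, and the libraries labelled double knockout at 814 and 1505 for Enpp7 and at 34.8 and 36.9 for Asah2.

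Genes near the members on the chromosome were read from the loci of the authors' deposited table. Within 200 kb of Alpi there were 9 named genes, 3 of them tested and 0 called by limma (0 at an unadjusted p under 0.05), and around Akp3 5 of 11 were tested and 0 called (1 at an unadjusted p under 0.05). Over all tested genes, 28.3% had an unadjusted p under 0.05, the share against which such counts are read here. Eif4e2, a translation factor gene 112 kb from Alpi, stood at 32.7 and 34.7 against 45.1 and 38.6 FPKM (limma, adjusted p = 0.290). Kcnj13, a potassium channel gene 199 kb from Akp3, stood at 1.55 and 5.39 against 0.0659 FPKM and a value listed at 0 (limma, adjusted p = 0.0666). Around Enpp7 4 of 5 genes were tested and 0 called by limma (2 at an unadjusted p under 0.05). Cbx2, a Polycomb gene 30.2 kb away, had a log2 fold change of -1.13 and Tbc1d16 one of -0.29 (limma, adjusted p = 0.0707 and 0.413), against -7.22 for Enpp7. Around Asah2 both neighbours were tested and neither called (1 at an unadjusted p under 0.05). Sgms1, which encodes a sphingomyelin synthase and lies 19.6 kb away, stood at 8.48 and 8.92 against 7.67 and 10.2 FPKM (limma, adjusted p = 0.949). A1cf, an RNA-binding protein gene 35.2 kb away, stood at 27.0 and 38.1 against 19.5 and 14.8 FPKM (log2 fold change -0.88; limma, adjusted p = 0.0891). Around Alpl 4 of 6 genes were tested (3 at an unadjusted p under 0.05), and Ece1, the gene of an endothelin-converting enzyme, was called lower at 13.9 and 13.6 against 8.09 and 8.06 FPKM (limma, adjusted p = 0.0498).

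**Figure D4:**
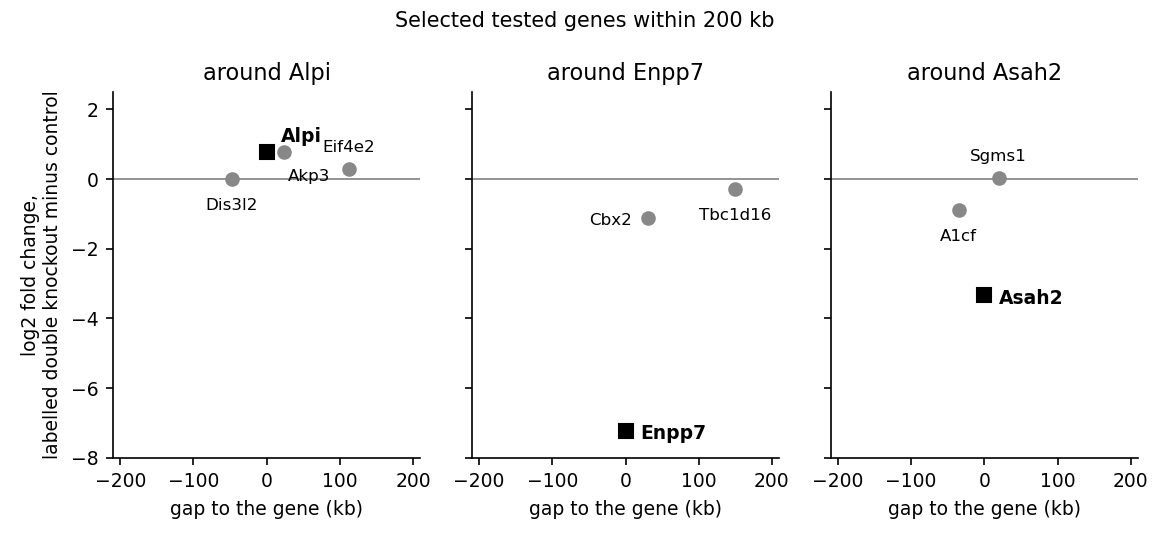
Log2 fold change (labelled double knockout minus control) of Alpi, Enpp7 and Asah2 (black squares) and of some tested genes within 200 kb (grey circles), by gap in kb, negative towards lower coordinates. Enpp7 at -7.22 and Asah2 at -3.34 lie below the neighbours drawn.

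The wider pathways were read from lists of known genes. Of the 12 sphingomyelin hydrolases and ceramidases all were tested, and the 2 called were Enpp7 and Asah2. The other 10, which include the lysosomal enzymes Smpd1 and Asah1 and the alkaline ceramidases, had a median log2 fold change of 0.09 with 0 called by limma in either direction (4 at an unadjusted p under 0.05, beside 28.3% of all genes), beside 0.02 over all tested genes. Smpd1, acid sphingomyelinase, stood at 4.00 and 3.67 against 4.40 and 3.39 FPKM. Smpdl3a, an acid sphingomyelinase-like phosphodiesterase, stood at 84.2 and 122 against 52.9 and 39.9 FPKM, and Acer1, an alkaline ceramidase, at 13.9 and 15.2 against 8.43 and 4.82. Neither pair of groups overlapped, as was so for 60.7% of all tested genes. Neither gene was called (log2 fold changes -1.13 and -1.06, limma adjusted p = 0.0613 and 0.0741). Of the 4 genes at an unadjusted p under 0.05, Smpd2 was also lower (log2 fold change -0.53; limma, adjusted p = 0.135). Smpdl3b went the other way, at 36.5 and 30.9 against 78.7 and 46.2 FPKM (log2 fold change 0.83; limma, adjusted p = 0.144). The ENPP family, to which Enpp7 belongs, had 5 of 7 members tested. Of these, 1 was called higher and 1 lower, beside 3.77% and 5.80% of all tested genes. At an unadjusted p under 0.05 there were 3 of the 5, beside 28.3% of all tested genes. Enpp1, an ectoenzyme that produces pyrophosphate from ATP, rose from 2.57 and 2.77 to 18.6 and 20.5 FPKM (limma, log2 fold change 2.49, adjusted p = 0.00331). Enpp7 and Enpp1 thus moved in opposite directions, and both were called. Enpp5 was also higher, at 4.68 and 2.82 against 9.15 and 15.6 FPKM, but not called (limma, adjusted p = 0.0572).

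Downstream of ceramidase, sphingosine is phosphorylated and then either dephosphorylated or cleaved. Of 17 genes of this handling 12 were tested, with 2 called higher and 2 lower (median log2 fold change -0.14). Over all tested genes, 3.77% were called higher and 5.80% lower. At an unadjusted p under 0.05 there were 7 of the 12, beside 28.3% of all tested genes. Sgpp1, a phosphatase of sphingosine 1-phosphate, rose from a mean of 10.6 to 37.7 FPKM (limma, adjusted p = 0.00737). Ppap2b, a lipid phosphate phosphatase, rose from 1.99 and 1.96 to 10.6 and 8.92 FPKM (limma, adjusted p = 0.00809). Sgpl1, the lyase that ends the pathway, fell from 187 and 210.1 to 90.0 and 53.1 FPKM (limma, adjusted p = 0.0417). Ppap2a fell from 76.7 and 71.0 to 42.0 and 33.5 FPKM (limma, adjusted p = 0.0399). Both falls were close to the threshold: the call of Ppap2a was lost in each fit with 1 library left out (highest limma adjusted p 0.133) and that of Sgpl1 in all such fits but the one without double knockout replicate 1 (highest 0.172). With a replicate block, the limma adjusted p was 0.0627 for Ppap2a and 0.0609 for Sgpl1, and with no filter on low values 0.0585 and 0.0756. Quantile normalization (0.0502) and the FPKM of each library alone (0.0575) also ended the call of Ppap2a. Sgpp1 without control replicate 1 (0.0537) and Ppap2b without control replicate 1 or 2 (0.0543 and 0.0570) also lost their limma call.

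Ceramide and complex sphingolipid synthesis had 20 of 26 genes tested, with 1 called higher and 1 lower and a median log2 fold change of 0.00. Over all tested genes, 9.57% were called in either direction. At an unadjusted p under 0.05 there were 4 of the 20, beside 28.3% of all tested genes. Sptssb, a small subunit that stimulates serine palmitoyltransferase, rose from 3.73 and 3.40 to 74.5 and 51.1 FPKM, 17.6-fold by group mean (limma, adjusted p = 0.00276). B4galt5, a lactosylceramide synthase, fell from 40.9 and 44.5 to 15.9 and 19.2 FPKM (limma, adjusted p = 0.0176), a call lost in the fits that left out control replicate 1 (0.0769), control replicate 2 (0.0965) or double knockout replicate 1 (0.0618). In glycosphingolipid breakdown 10 of 11 genes were tested (4 at an unadjusted p under 0.05). Beside 5.80% of all tested genes called lower and 3.77% higher, 2 of the 10 were called lower and 0 higher (median -0.24). Among these, Hexa, a gene of lysosomal ganglioside breakdown, fell from 81.3 and 69.6 to 18.4 and 13.9 FPKM (limma, adjusted p = 0.00809). Without control replicate 1 or 2 the limma adjusted p of Hexa was 0.0574 and 0.0540. The calls of Sptssb and Enpp1 held in each fit with 1 library left out.

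**Figure D5:**
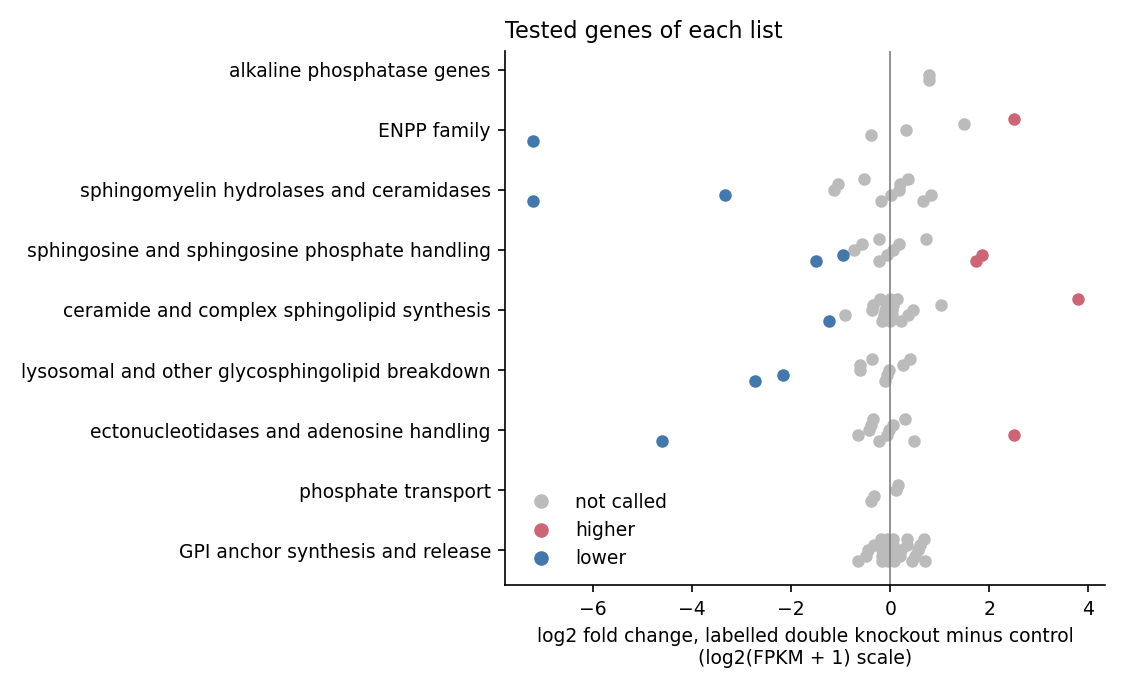
Log2 fold change (labelled double knockout minus control, log2(FPKM + 1) scale) of each tested gene in the 9 pathway lists, 1 point per gene with red for called higher, blue for called lower and grey for not called. Enpp7 and Asah2 are the leftmost points of the sphingomyelin hydrolase and ceramidase row, Enpp7 appears also in the ENPP row, and the GPI anchor row has no called gene.

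Pathways that accompany the phosphatases were read beside the 9.57% of all tested genes called in either direction. All 26 tested genes of GPI anchor synthesis and release, of 29 on the list, were not called by limma (7 at an unadjusted p under 0.05, beside 28.3% of all genes), with a median log2 fold change of 0.03. The most abundant, Pigt, a subunit of the enzyme that attaches the anchor, stood at 54.4 and 41.1 against 64.2 and 55.5 FPKM (limma, adjusted p = 0.350). Of 6 phosphate transporters 4 were tested and 0 called by limma or at an unadjusted p under 0.05 (median -0.10), with Slc20a1 the most abundant at 12.2 and 33.1 against 15.6 and 31.0 FPKM. Among 15 genes of ectonucleotidases and adenosine handling 12 were tested, with Enpp1 called higher and Slc28a1 lower (median -0.14). At an unadjusted p under 0.05 there were 3 of the 12. Slc28a1, a nucleoside transporter, fell from 48.9 and 97.3 to 0.228 and 5.74 FPKM (limma, adjusted p = 0.0385), a call lost without control replicate 1 (0.108) or 2 (0.172), with a pseudocount of 0.1 (0.0680) and with no filter on low values (0.0800).

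The genes with the most similar profiles were found among the 5871 genes that averaged 10 FPKM or more, by the Euclidean distance of centred log2(FPKM + 1) values over the 4 libraries. All such profiles share the same libraries, and 4 points separate genes poorly. Nearest to Enpp7 was Lct, the lactase gene, at a distance of 0.50 and with 300 and 283 against 2.70 and 0.742 FPKM. Dnase1, Slc5a4b, Dpep1 and Gal3st2 followed at 1.01 to 1.87. Nearest to Alpi were Tmem176a, Mrs2, Hif1a, Adam9 and Ahcyl2, at distances of 0.13 to 0.21. Tmem176a, for example, stood at 32.1 and 45.6 against 74.5 and 49.3 FPKM.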

How the data were processed

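RNA-seq of 4 libraries was used, grouped by sample title. The submitters' processing notes name the build mm9 and the tools Cuffdiff, Cuffnorm, Cufflinks (2.1.1) and TopHat2 (2.0.9), without their roles. The authors deposited a table without a stated unit, taken as FPKM normalized between libraries because its values resemble the FPKM files of single libraries, which were used as an alternative. The authors' deposited comparison table gives group FPKM, a test statistic score (not used here), p-values and q-values. Its log2 fold changes and the interval bounds of the single-library files were not used.

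Values of 147 symbols found on several rows were added up, and 1034 symbols of short RNAs were dropped. Genes averaging 1 FPKM or more were tested with limma (version 3.58.1, R version 4.3.3) on log2(FPKM + 1), genotype as the term, with an intensity trend, two-sided, a procedure tested on simulated data. Fold changes on this scale understate those of low genes. Relative depth came from the most frequent ratio of values under 0.1 FPKM between libraries (186 to 290 genes at that ratio), and approximate reads from transcript lengths of GENCODE M21. Intervals on reads cover counting error only. Promoter windows (all 5 members matched) are from RefSeq.

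The genes named followed a rule: the members and Alppl2, up to 3 called genes in each direction of each list or else its most abundant gene, called genes within 200 kb, and the 5 nearest profiles. Smpd1, Smpdl3a, Acer1, Sgms1, A1cf, Kcnj13, Eif4e2, C1qb, Cd14, Vil1, Epcam, Cbx2 and Tbc1d16 were named, and neighbours drawn, after their values were seen, and some genes are not reported here. The members and lists were chosen with earlier results of these data known. The alternatives changed the pseudocount, filter, scaling, source of the FPKM and variance model, added a replicate block, and left out each library in turn.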

Additional observations from a re-analysis of the deposited data

How the results depend on the processing

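Enpp7 kept its direction and call under all 13 alternatives, and Alpi stayed higher and not called under all 13. Asah2 kept both under 12, the exception being the fit without control replicate 2. With each library left out, the log2 fold change ran from -7.54 to -6.89 for Enpp7, from -3.64 to -3.04 for Asah2, from 0.51 to 1.04 for Alpi, from -0.14 to 1.70 for Akp3 and from 0.05 to 0.15 for Alpl. Akp3 reversed to -0.14 without double knockout replicate 1. The value of Alpl depends on the pseudocount by construction, at 0.10 with 1, 0.18 with 0.5 and 0.57 with 0.1. Leaving out 1 library reduced the genes called from 1041 to between 171 and 693, with fewer samples in each fit. The FPKM estimated for each library alone gave 515 higher and 478 lower calls against 410 and 631, with the median of all genes at 0.17 against 0.02 on the log2 scale. Alpi then had a log2 fold change of 0.90 (limma, adjusted p = 0.0820).

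For Alpl, which was under the filter, the stricter filter, median centring, quantile normalization, the fit without a trend and the block were not run. A group left with 1 library was assumed to vary like the other.

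Deviations of same-numbered libraries from their group means were not correlated over 10883 genes (r = -0.005). From 2 libraries in each group this cannot show whether the libraries were paired, and the labels do not say. With a replicate block 786 genes were called, Enpp7 and Asah2 among them (limma, adjusted p = 0.00297 and 0.0156), and Sgpl1 and Ppap2a were not (0.0609 and 0.0627). With 4 libraries, Alpl and Alppl2 rest on few reads and the interval of Alpi reaches from no difference to a log2 rise of 1.555.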

Other observations

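Several genes of purine handling differed more between the control libraries than between the groups, and were picked out after their values were seen. Nt5e, the ecto-5'-nucleotidase that turns AMP into adenosine, stood at 25.1 and 249.7 FPKM in control replicates 1 and 2 and at 57.9 and 59.2 FPKM in the libraries labelled double knockout. Ada, adenosine deaminase, stood at 77.8 and 323 FPKM against 188 and 262, and Slc28a2, a nucleoside transporter, at 36.0 and 179 against 111 and 56.6. Enpp3, an ectoenzyme of the same family as Enpp7, stood at 156 and 474 FPKM against 259 and 169. None of these genes was called. Alpi and Asah2 were also higher in control replicate 2 than in control replicate 1, whereas Enpp7 was lower.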
